A study of Mus musculus with 4 samples.

Results

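The Bcl2 family was examined in mouse embryonic stem cell (ESC) derived neural tissue, as 10 genes split by their known role in apoptosis, the programmed death of a cell. The 3 pro-survival members were Bcl2, Bcl2l1 (Bcl-xL) and Mcl1. The pro-death members were the effectors Bax and Bak1 and the BH3-only genes Pmaip1 (Noxa), Bbc3 (Puma), Bcl2l11 (Bim), Bid and Bik. Every probe set annotated to one of these genes alone was taken, which gave 30 probe sets of 9 genes out of 45101 probe sets of the array, and 15 of the 30 lay on each side. No probe set was annotated to Bax in the table used, so Bax was not analysed here.

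Proteins of the family meet at the mitochondrial outer membrane. Bax and Bak1 open this membrane and release cytochrome c, which leads to caspase activation, and the pro-survival members hold them in check. BH3-only proteins respond to damage or stress and act by binding the pro-survival members or by activating the effectors directly. Pluripotent cells and early embryonic cells are known to enter apoptosis readily, and much of the control of these proteins is not transcriptional.

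The cells came from a single mouse ESC line, Rax::GFP, in which GFP reports Rax, a homeobox gene of the rostral neural plate. They were grown as floating aggregates by the SFEBq method, in a medium without added growth factors, and sorted by flow cytometry at day 4.5 into Rax::GFP+ cells and Rax::GFP- cells, the second taken by the study as presumptive caudal tissue. Each group had 2 Affymetrix mouse arrays, which the study describes as biological duplicates, each of RNA pooled from many aggregates. All 4 arrays shared the reporter line, the culture method and the day, and the groups are labelled by the sort gate, so the GFP- group was defined by absence of GFP and not by a cell type.

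Differences below are log2 values of GFP- minus GFP+ cells. They were tested by limma with Benjamini-Hochberg adjustment over all probe sets, and a probe set was called at an adjusted p under 0.05. Intervals are 95% intervals of a single probe set, without adjustment. In these bulk samples fewer cells of a type and less RNA per cell cannot be told apart.

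The sort was checked with marker genes, read from the most expressed probe set of each. Of 6 rostral neural markers 5 were called lower in GFP- cells, Rax itself by a log2 difference of -2.05 (limma adjusted p = 0.00785). Of 6 caudal neural markers 4 were called higher, Irx3 among them. Of 6 early neural markers 4 were called lower. Markers of other lineages were also higher in GFP- cells. Of 7 pluripotency markers 6 were called higher and of 7 endoderm markers all 7 were, while 1 of 4 mesoderm markers was. Of 4 neural crest markers 1 was called higher and 1 lower, and of 4 blood cell markers 0 were called by limma, with 2 at an unadjusted p under 0.05. Fos, an immediate early gene induced within minutes by stimulation or handling, stood at 12.60 and 10.69 on the GFP+ arrays and at 10.58 and 9.13 on the GFP- arrays, with replicate 1 higher in both groups. Of 6 such genes 0 were called by limma, and 0 had an unadjusted p under 0.05.

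Pmaip1 was the member that passed the threshold. Its level was 4.52-fold higher in GFP- cells, and of the 30 probe sets of the family its single probe set was the 1 that passed the test. Over the whole array 3.64% of probe sets were called higher in GFP- cells and 3.82% lower. The other 29 probe sets had differences from -1.22 to 0.42, and 0 of them were called by limma, although 13 had an unadjusted p under 0.05.

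**Figure D1:**
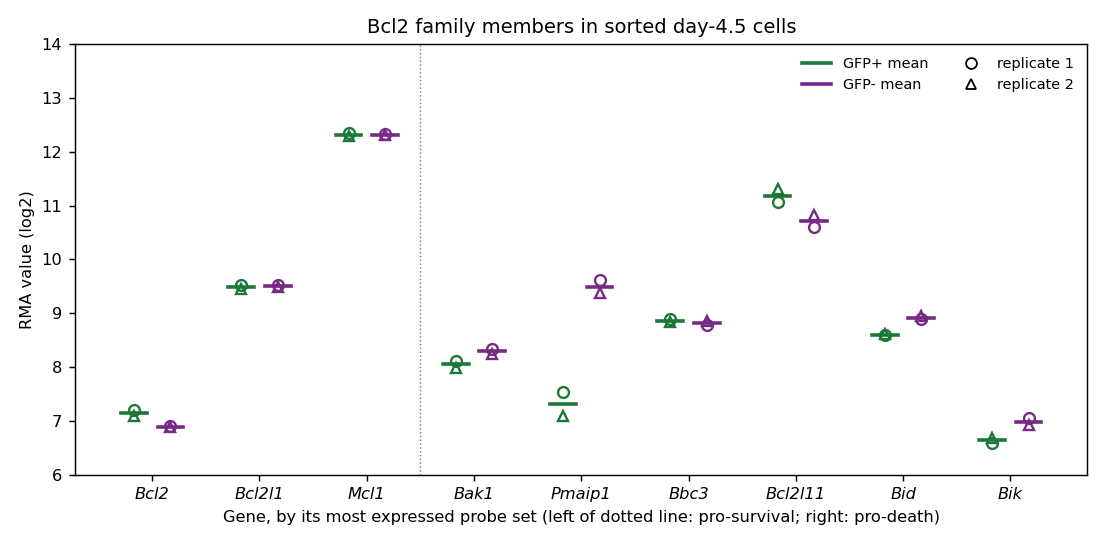
Deposited log2 RMA value (y axis) of the most expressed probe set of 9 Bcl2 family genes (x axis) on each array, with circles for replicate 1, triangles for replicate 2 and a bar for the mean of 2 arrays, GFP+ in green and GFP- in purple. Pmaip1 lay at 7.10 and 7.54 on the GFP+ arrays and at 9.38 and 9.61 on the GFP- arrays, while the Mcl1, Bcl2l1 and Bbc3 values of both groups overlapped, and heights of different genes are not comparable because each probe set has its own affinity.

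Pmaip1 encodes Noxa, a BH3-only protein that binds Mcl1 with preference and is a known transcriptional target of p53 and of stress pathways. Its log2 value was 7.54 and 7.10 on the GFP+ arrays and 9.61 and 9.38 on the GFP- arrays. The lower GFP- array exceeded the higher GFP+ array by 1.84. Means were 7.32 ± 0.31 for GFP+ and 9.50 ± 0.16 for GFP- (SD, n = 2 each). The log2 difference was 2.18 with a standard error of 0.18 and an interval from 1.70 to 2.65 (limma adjusted p = 0.0115). Of 18194 genes, each taken by its most expressed probe set, 61 had a larger difference, or 0.335%. The difference stayed between 1.96 and 2.40 in 11 other settings and was called in 8 of them, but the call was lost with the replicate number as a block (adjusted p = 0.0567) and when GFP- replicate 1 (adjusted p = 0.126) or GFP- replicate 2 (adjusted p = 0.114) was left out. In each of these 3 settings 0 probe sets of the whole array passed limma's test, with 7697 to 11019 at an unadjusted p under 0.05.

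Some marker lists were, like Pmaip1, higher in GFP- cells, and others were not. The median difference was 3.01 for pluripotency, 2.36 for endoderm, 1.81 for caudal neural, 0.58 for mesoderm and 0.24 for blood cell markers. For rostral neural markers it was -1.49, for early neural markers -0.84, for immediate early genes -0.84 and for neural crest markers -0.05. With 2 arrays per group, likeness to Pmaip1 cannot be ranked. The 7 pluripotency markers averaged log2 values of 7.15 and 7.03 on the GFP+ arrays and 9.71 and 9.65 on the GFP- arrays. The 7 endoderm markers averaged 6.23 and 6.59 against 8.62 and 8.79, and the 6 caudal neural markers 4.92 and 4.81 against 6.91 and 6.31. Pou5f1, the pluripotency factor Oct4, read 8.73 and 8.68 on the GFP+ arrays and 11.34 and 11.42 on the GFP- arrays. Nanog, of the same list, read 6.23 and 5.66 against 9.58 and 9.34. The part of pluripotent, endoderm or caudal neural cells in the Pmaip1 difference was not tested.

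Bbc3, which encodes Puma and is like Pmaip1 a BH3-only target of p53, did not pass the test. The GFP+ arrays read 8.90 and 8.83 and the GFP- arrays 8.78 and 8.85. The groups overlapped, and the difference was -0.05 with an interval from -0.25 to 0.15 (limma adjusted p = 0.742).

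Bcl2l11 encodes Bim, a BH3-only protein that binds every pro-survival member and activates the effectors. It had the lowest differences among the pro-death genes. Its most expressed probe set stood at 11.07 and 11.30 on the GFP+ arrays and at 10.61 and 10.83 on the GFP- arrays. Both GFP- arrays lay below both GFP+ arrays, with a difference of -0.46 and an interval from -0.80 to -0.12, which did not pass the adjustment (limma adjusted p = 0.109). Of its other 4 probe sets, 3 also had non-overlapping groups, with differences of -0.40, -0.33 and -0.30 and adjusted p from 0.146 to 0.216 in limma. The remaining one differed by 0.02, and its groups overlapped. Over the whole array, 57.3% of probe sets had groups that did not overlap. The 5 probe sets were read from the same RNA samples, so they are not separate evidence. By the most expressed probe set, 96.5% of genes had a larger signed difference than Bcl2l11.

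Bid is a BH3-only protein that caspase-8 cleaves, which links death receptors to mitochondria. Its most expressed probe set was at 8.60 and 8.61 on the GFP+ arrays and at 8.89 and 8.95 on the GFP- arrays. The groups were apart, with a difference of 0.32 and an interval from 0.13 to 0.51, though the adjusted p of limma was 0.0749. A second probe set differed by 0.40 (limma adjusted p = 0.0822), and the third by 0.07 with overlapping groups. After Pmaip1, the most expressed probe set of Bid had the lowest adjusted p among the most expressed ones of the family. It passed with Storey q-values, with the filter on dim probe sets and with an intensity trend in the variance. In these settings 6134, 4675 and 6962 probe sets of the array were called, against 3367. This Bid probe set did not pass in limma with the replicate block (adjusted p = 0.145), median centring (0.0569), quantile normalization (0.0752) or array weights (0.0753). When an array was left out, its difference ran from 0.29 to 0.35.

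Bik is a BH3-only protein found largely at the endoplasmic reticulum. All 3 of its probe sets had non-overlapping groups, as had 57.3% of all probe sets, with differences of 0.35, 0.28 and 0.15. For the probe set at 0.15 the groups were only 0.01 apart. Its interval ran from -0.14 to 0.44 (limma adjusted p = 0.449). The probe set at 0.28 was dim, at 4.58 and 4.64 against 4.87 and 4.92 (limma adjusted p = 0.101). The most expressed gave 6.59 and 6.69 in GFP+ cells against 7.05 and 6.92 in GFP- cells, with an interval of the difference from 0.12 to 0.58 (limma adjusted p = 0.0892). The name of that probe set ends in _x_at, the array maker's mark for probes that can also match other transcripts. The third Bid probe set carries the same mark, as do some Mcl1 probe sets, the dimmest of Bcl2 and that of Trib3, given below.

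Bak1, the effector that resides on mitochondria in healthy cells, had 2 probe sets. The more expressed one stood at 8.12 and 7.99 on the GFP+ arrays and at 8.34 and 8.25 on the GFP- arrays, a difference of 0.24 with an interval from 0.01 to 0.47 (limma adjusted p = 0.180). The other was dim, at 4.55 and 4.57 against 4.91 and 4.85, and differed by 0.32 (limma adjusted p = 0.0738). Both probe sets were higher on each GFP- array than on each GFP+ array, by less than 0.38, the smallest difference that was called anywhere on the array. Groups were likewise apart, in either direction, for 57.3% of all probe sets.

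Among the pro-survival genes, Mcl1, a short-lived protein that Pmaip1 targets, gave different pictures by probe set. The most expressed stood at 12.34 and 12.29 on the GFP+ arrays and at 12.32 and 12.31 on the GFP- arrays. These values overlapped, and the interval of the difference ran from -0.19 to 0.19 around 0.00. The other 5 probe sets were all higher in GFP- cells with non-overlapping groups, by 0.14 to 0.29, and 0 of them passed the test of limma. Groups did not overlap for 57.3% of all probe sets of the array. The Mcl1 probe sets were read from the same RNA samples, so they are not separate evidence, and some carry the _x_at mark. The probe set with the tightest replicates read 9.93 and 9.94 in GFP+ and 10.19 and 10.20 in GFP- cells. Its difference was 0.26 with an interval from 0.08 to 0.44 (limma adjusted p = 0.102).

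Bcl2l1 encodes Bcl-xL, a pro-survival protein of the mitochondrial membrane. Its most expressed probe set gave 9.52 and 9.45 in GFP+ cells against 9.53 and 9.49 in GFP- cells. The groups overlapped, with a difference of 0.02 and an interval from -0.17 to 0.22 (limma adjusted p = 0.879). A dim probe set of the gene was at 3.90 and 4.10 against 4.21 and 4.62, a difference of 0.42 (limma adjusted p = 0.213), and the other 2 overlapped at 0.12 and -0.07.

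Bcl2 itself had the widest range of differences among probe sets of a member, from -1.22 to -0.01. The most expressed stood at 7.20 and 7.09 on the GFP+ arrays and at 6.90 and 6.88 on the GFP- arrays, a difference of -0.26 with an interval from -0.47 to -0.05 (limma adjusted p = 0.129). Another probe set read 6.0 and 5.07 in GFP+ cells. In GFP- cells it read 4.19 and 4.43, under the limit of 5 used for dim probe sets, and it passed that filter through its GFP+ arrays alone. Its groups did not overlap, but the GFP+ arrays stood far from each other (SD 0.66), and the difference of -1.22 had a standard error of 0.33 (limma adjusted p = 0.101). Leaving out GFP+ replicate 2 gave -1.69, which was called (adjusted p = 0.0226), and leaving out GFP+ replicate 1 gave -0.76. The remaining 3 probe sets of Bcl2 differed by -0.04, -0.01 and -0.01 with overlapping groups.

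**Figure D2:**
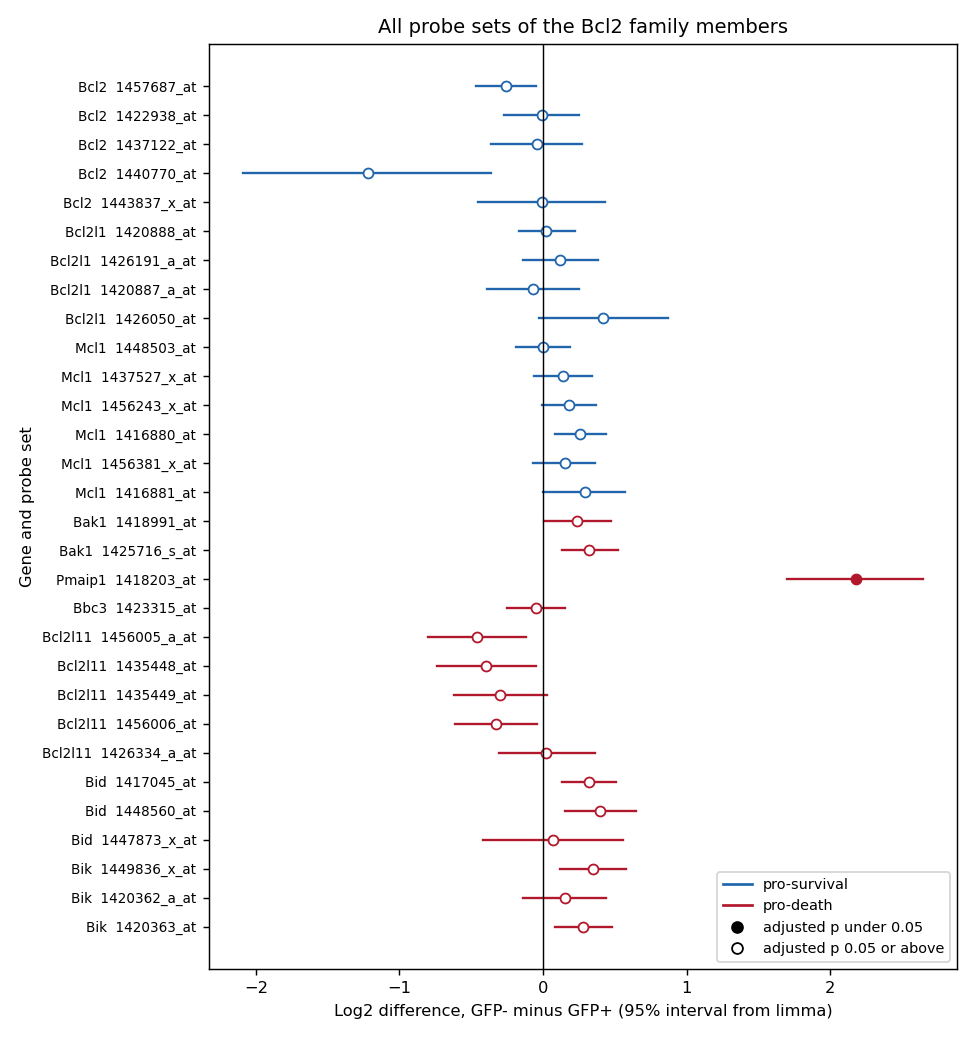
Log2 difference, GFP- minus GFP+ (x axis), of all 30 probe sets of the family (y axis), with the 95% interval from limma over 2 arrays a group, pro-survival in blue and pro-death in red, filled where the adjusted p was under 0.05. The Pmaip1 probe set lies at 2.18, and the other 29 lie between -1.22 and 0.42, 0 of them filled.

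**Figure D3:**
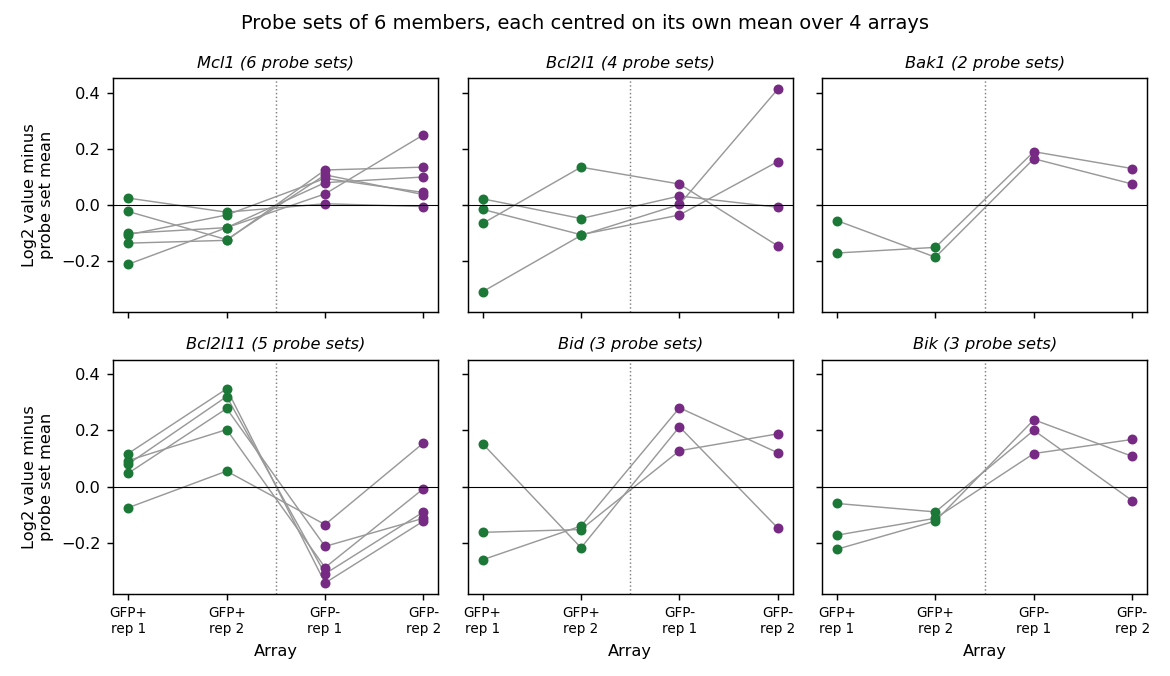
Log2 value on each array minus the mean of that probe set over 4 arrays (y axis), for 6 genes with more than 1 probe set, GFP+ arrays in green and GFP- arrays in purple, where each line joins the values of a probe set and carries no order among replicates. Of the Bcl2l11 probe sets, 4 of 5 were lower on both GFP- arrays, all 3 of Bik and both of Bak1 were higher, and Bcl2 is left out because 1 of its probe sets exceeds this scale. Over the whole array, groups did not overlap for 57.3% of probe sets.

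Set side by side, the pro-death genes had 12 of 15 probe sets with non-overlapping groups, 8 higher and 4 lower in GFP- cells, and the pro-survival genes had 8 of 15, of which 6 were higher and 2 lower. For the family as a whole this was 20 of 30, or 66.7%, where 57.3% of all probe sets of the array had groups that did not overlap. An unadjusted p under 0.05 was found for 10 pro-death and 4 pro-survival probe sets, against 26.7% of all probe sets. The median difference was 0.15 over pro-death probe sets and 0.02 over pro-survival probe sets, with 0.03 over the array. By the most expressed probe set of each gene, the medians were 0.28 for 6 pro-death genes, 0.00 for 3 pro-survival genes and 0.05 for 18194 genes. The difference between the sides was not tested, because probe sets of a gene are not independent and the genes are few.

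Around the family, 6 lists of related genes held 70 genes, of which 62 had a probe set of their own. By the most expressed probe set 6 of the 62 were called higher in GFP- cells and 0 lower, where 5.4% of all genes were called higher and 2.63% lower. At an unadjusted p under 0.05 there were 17 higher and 7 lower, where 3037 of all 18194 genes were higher and 1663 lower. The median difference of the 62 genes was 0.04, near the 0.05 of all genes.

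**Figure D4:**
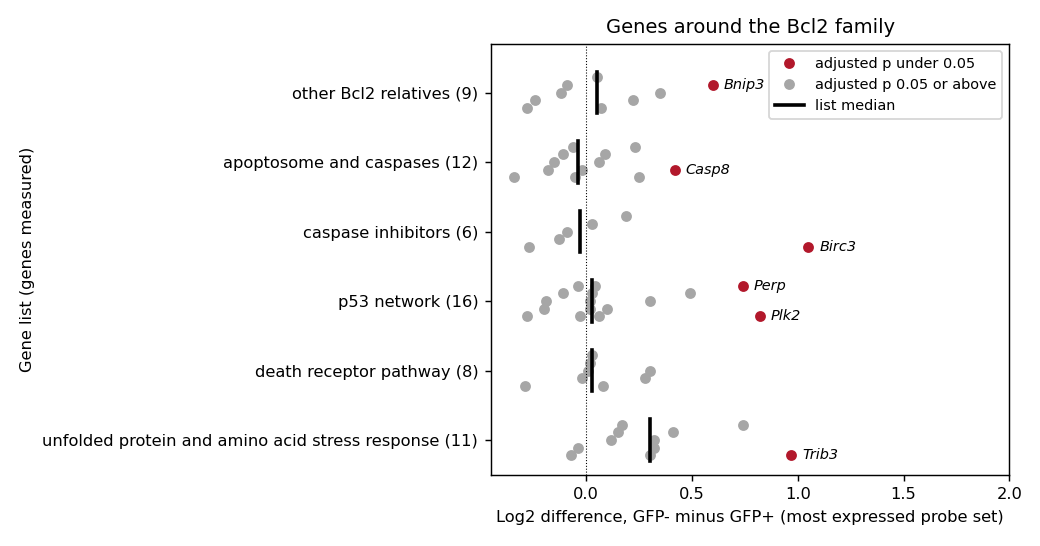
Log2 difference, GFP- minus GFP+ (x axis), of 62 genes in 6 lists (y axis, with the number of genes measured), a gene being read from its most expressed probe set, in red where the adjusted p was under 0.05, with a black bar at the list median and heights within a list set apart for legibility. The 6 called genes were all higher in GFP- cells, between 0.42 and 1.05, and list medians lay between -0.04 and 0.30.

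Of the 9 other Bcl2 relatives measured, 1 was called. Bnip3, a BH3-like mitochondrial protein induced by hypoxia that also acts in mitophagy, rose from 10.32 and 10.20 to 10.86 and 10.87, a difference of 0.60 (limma adjusted p = 0.0278). Bcl2l13 (-0.12) and Bmf (0.07) were the most expressed of those that did not pass.

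Of 12 apoptosome and caspase genes, 1 was called. Casp8, the initiator caspase of death receptors that cleaves Bid, rose from 7.97 and 8.02 to 8.37 and 8.45, a difference of 0.42 at the edge of the threshold (limma adjusted p = 0.0499). It was not called with quantile normalization (adjusted p = 0.0517) or array weights (adjusted p = 0.0502). Cycs, which encodes cytochrome c, differed by -0.05, and Aifm1 by -0.02.

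Of 6 caspase inhibitors, 1 was called. Birc3, which encodes cIAP2, a ubiquitin ligase of TNF receptor signalling and a target of NF-kB, rose from 5.34 and 5.49 to 6.40 and 6.54, a difference of 1.05 (limma adjusted p = 0.0143). Birc5 (Survivin), a protein of dividing cells, differed by -0.13, and Xiap, a direct inhibitor of caspases, by 0.03.

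Of 16 genes of the p53 network, 2 were called, with a list median of 0.03. Plk2, a kinase of the cell cycle and centrosome, rose from 7.86 and 7.78 to 8.62 and 8.67, a difference of 0.82 (limma adjusted p = 0.0143). Perp, a membrane protein of p53-dependent apoptosis and of desmosomes in epithelia, rose from 7.19 and 7.05 to 7.87 and 7.85, a difference of 0.74 (limma adjusted p = 0.0207). Trp53inp1 differed by -0.19 and Ccng1, a cyclin induced by p53, by -0.28, and neither was called. Trp53, the gene of p53 itself, was not analysed here.

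Of 8 death receptor genes, 0 were called by limma and 3 had an unadjusted p under 0.05. Tnfrsf1a, the main TNF receptor, differed by 0.30 (limma adjusted p = 0.103) and its adaptor Traf2 by 0.08.

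Of 11 genes of the unfolded protein and amino acid stress response, 1 was called. The list median was 0.30, and 9 had positive differences, as had 11262 of all 18194 genes. An unadjusted p under 0.05 in limma was found for 6 of the 11 (54.5%), all higher in GFP- cells, against 25.8% of all genes. Trib3, a pseudokinase induced by Atf4 and Ddit3, rose from 7.52 and 7.65 to 8.51 and 8.60, a difference of 0.97 (limma adjusted p = 0.0130). Hspa5, the chaperone BiP of the endoplasmic reticulum, differed by -0.04, and Ddit4, an inhibitor of mTOR signalling, by 0.32 without passing the test (limma adjusted p = 0.178).

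When an array was left out, calls of these 6 genes were lost. Without GFP+ replicate 1, GFP- replicate 1 or GFP- replicate 2, 0 of them was called by limma. Without GFP+ replicate 2, Birc3, Plk2, Perp and Trib3 were called.

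**Figure D5:**
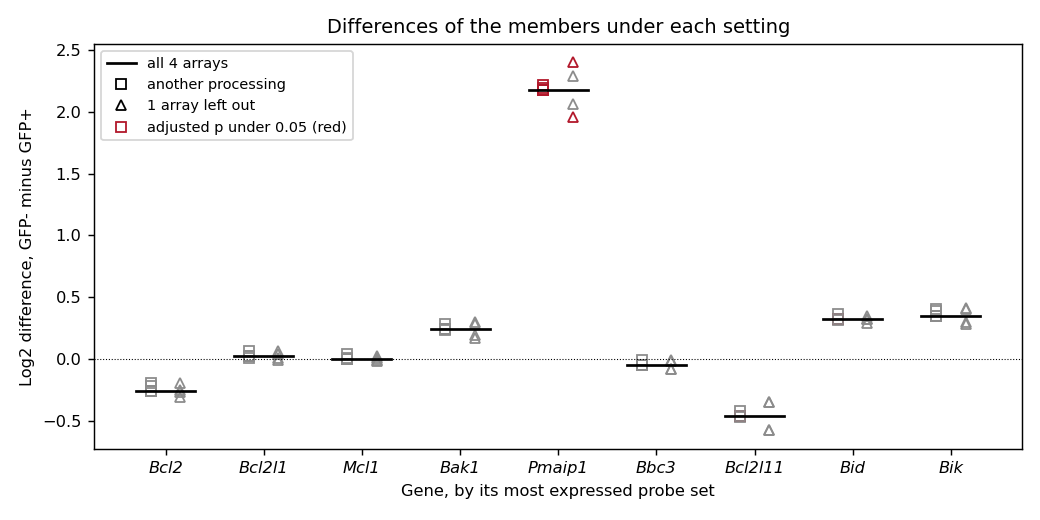
Log2 difference, GFP- minus GFP+ (y axis), of the most expressed probe set of 9 Bcl2 family genes (x axis), with a line for all 4 arrays, squares for other processing and triangles for fits with 1 array left out, in red where the adjusted p was under 0.05. Pmaip1 stayed between 1.96 and 2.40 in every setting drawn, and squares and triangles of the other 8 genes stayed close to their lines.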

How the data were processed

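Per the labels and the study's methods, total RNA of sorted cells was labelled with biotin and hybridised to Affymetrix arrays, 2 per group. The log2 values deposited by the authors came from RMA in R 2.13.0 and ran from 2.20 to 15.07, with array medians of 5.84 to 5.89. RMA gives arrays a common distribution, so a change in total RNA cannot be seen. The number of arrays limits precision.

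Probe sets were named through GEO's platform annotation: 34958 had 1 symbol, 932 several and 9211 none. Of those with 1 symbol, 34754 matched GRCm38.p6 by gene number and 0 differed in symbol. A model of 2 groups was fitted to all 45101 probe sets (limma 3.58.1, R 4.3.3), without filter or block, with 2 residual and 2.52 prior degrees of freedom. An exact permutation test of 2 against 2 arrays cannot give a two-sided p below 0.333, so none was used. The fit was tested on simulated data, with an equal spread in all probe sets and shifts larger than any member's difference. That test does not bear on the calls of small differences. Members, lists and tests were chosen with earlier results of these data known. Every member probe set is given, as is, for each pathway list, up to 4 called genes and the 2 most expressed uncalled ones. Alternatives were a replicate block, Storey q-values, a filter on dim probe sets (at least 5 on at least 2 arrays), median centring, quantile normalization, an intensity trend, array weights, leaving out each array, and the mean of a gene's probe sets.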

Additional observations from a re-analysis of the deposited data

How the results depend on the processing

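With 2 arrays per group, the spread was estimated from few values. The arrays carry replicate numbers 1 and 2 in both groups, and the labels tie the numbers to no shared culture. Across all probe sets the deviations of same-numbered arrays had a correlation of -0.0514, which does not speak for single genes. Replicate 1 was higher in both groups for Pmaip1, and replicate 2 for the most expressed Bcl2l11 probe set, while for Bbc3 the order differed. With the replicate block the standard errors of Pmaip1 and this Bcl2l11 probe set were 0.09 and 0.07, against 0.18 and 0.13. The study's methods describe RNA of pooled aggregates from each experiment, in biological duplicate, without saying which arrays share an experiment. Whether the sorts were paired was not settled. With the replicate block, which leaves 1 residual degree of freedom, 0 pro-death probe sets, 0 pathway genes and 0 of all probe sets were called by limma, with 11019 at an unadjusted p under 0.05, and Pmaip1 had an adjusted p of 0.0567. Pro-death probe sets called numbered 4 with Storey q-values, 2 with the filter on dim probe sets and 3 with the intensity trend, against 1 in the report, and 0 to 1 when an array was left out. Pro-survival probe sets called numbered 2 with the intensity trend and 0 to 1 when an array was left out. Pathway genes called numbered 17 with the intensity trend, against 6, and 0 to 4 when an array was left out. Over the array 6134 probe sets were called with Storey q-values and 6962 with the intensity trend, against 3367, and 0 to 2978 when an array was left out (820 without GFP+ replicate 1, and 0 without GFP- replicate 1 or 2, where 7704 and 7697 had an unadjusted p under 0.05).

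The intensity trend added 4 member probe sets to the calls, 1 each of Bcl2l11, Bid, Mcl1 and Bcl2, and Storey q-values added 3, 2 of Bid and 1 of Bak1. Of those added by the trend, Bcl2l11 and Bcl2 were lower in GFP- cells, and Bid and Mcl1 higher. Of the 17 pathway genes called with the intensity trend, 12 were higher in GFP- cells. Trp53inp1 and Ccng1 were among those called lower in that setting. The signs that turned belonged to differences between -0.07 and 0.07 in the report. With arrays centred on their medians, 2 probe sets of Bcl2 gave 0.03, Aifm1 0.02 and Hspa5 0.00, and with quantile normalization 1 of those of Bcl2 gave 0.03. When an array was left out, the 3 Bcl2 probe sets with overlapping groups ran from -0.11 to 0.09, from -0.18 to 0.09 and from -0.22 to 0.20, Bcl2l1 from -0.01 to 0.06 (most expressed) and from -0.18 to 0.04, Mcl1 from -0.02 to 0.02, the dimmest Bcl2l11 probe set from -0.12 to 0.17, the third of Bid from -0.11 to 0.25, Cycs from -0.12 to 0.02, Aifm1 from -0.05 to 0.00 and Xiap from -0.05 to 0.10. Averaging a gene's probe sets left the 9 members on the same side of the threshold.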
